A study of Mus musculus with 16 samples.

Results

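The genes described here are the mouse fibroblast growth factors (FGFs), their receptors, and a set of genes that FGF signalling induces, most of which damp it. Membership followed a rule that used gene names only. It took every gene whose symbol on the array is Fgf followed by a number, together with Fgfr1, Fgfr2, Fgfr3, Fgfr4, Fgfrl1, Spry1, Spry2, Spry4, Spred1, Spred2, Dusp6, Etv4 and Etv5. This gave 35 of the 19938 genes tested: 22 Fgf genes, 5 receptor genes, and 8 feedback genes and targets. The last set is called feedback genes for short, although Etv4 and Etv5 are in it as targets. None was removed for a low signal. The 9 members Fgf3, Fgf6, Fgf7, Fgf12, Fgf14, Fgf16, Fgf17, Fgf20 and Fgf21 lay among the dimmest 33.3% of genes by mean signal, where array signals tend to understate differences.

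RNA of 16 mouse samples was hybridised to Affymetrix arrays, 1 array per sample, and every level below is the log2 of the deposited intensity. The study asked what becomes of tissue when reprogramming in the living animal is cut short, so it used mice in which doxycycline switches on reprogramming factors. Kidney tumors (3 arrays) were taken 7 days after withdrawal of doxycycline, which had been given for 7 days from 4 weeks of age; the labels state no timing for the liver tumors (3 arrays). Secondary kidney tumors (3 arrays) had been transplanted under the skin of immunodeficient mice, so host cells may be present. Normal kidney (3 arrays, same age as the kidney tumors) and normal liver (3 arrays) were the controls, and 1 array held ES cells of the 129xC57BL6 F1 background. The mice were derived from that ES cell line and had that F1 background or a mixed background of the same strains. Tumors arose in chimeric animals and could therefore include ICR host cells. No label gives the transgene state of the animals that supplied the normal tissues.

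FGFs are mostly secreted proteins that bind heparan sulfate and activate receptor tyrosine kinases, which signal through Ras, MEK and ERK. The pathway restrains itself: ERK activity induces Sprouty and Spred proteins, which act on Ras signalling, and the phosphatase Dusp6, which inactivates ERK, along with the Ets transcription factors Etv4 and Etv5. In the early mouse embryo Fgf4 is made by the inner cell mass and by ES cells, Fgf5 by the post-implantation epiblast, and Fgf15 by the later embryo, in its neural tube among other sites, and by the adult ileum. Fgf4, Fgf5 and Fgf15 therefore serve as stage markers. In adult kidney and liver, Fgfr4 is a receptor of epithelial cells, and in liver it receives Fgf15 from the gut.

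The sequences just upstream of 4 members are shown because Fgf5, Fgf10 and Spry2 rose together in tumors of both organs whereas Fgf4 was not called in liver tumors and was highest in ES cells, where Spry2 was high too. Each is the 250 bases before an annotated transcript start, 5′ to 3′ on the strand of the gene, from RefSeq on GRCm38.p6. CpG dinucleotides, the sites of DNA methylation in mammals, are in capitals. The Fgf4 window is chr7:144861136-144861385 (plus strand), that of Fgf5 is chr5:98253934-98254183 (plus strand), that of Fgf10 is chr13:118714449-118714698 (plus strand) and that of Spry2 is chr14:105896820-105897069 (minus strand).
Fgf4: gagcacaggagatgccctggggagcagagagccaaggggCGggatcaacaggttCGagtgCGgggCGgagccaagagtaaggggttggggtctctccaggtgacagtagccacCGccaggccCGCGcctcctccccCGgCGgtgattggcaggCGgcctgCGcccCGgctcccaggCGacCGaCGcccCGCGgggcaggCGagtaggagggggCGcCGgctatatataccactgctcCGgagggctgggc
Fgf5: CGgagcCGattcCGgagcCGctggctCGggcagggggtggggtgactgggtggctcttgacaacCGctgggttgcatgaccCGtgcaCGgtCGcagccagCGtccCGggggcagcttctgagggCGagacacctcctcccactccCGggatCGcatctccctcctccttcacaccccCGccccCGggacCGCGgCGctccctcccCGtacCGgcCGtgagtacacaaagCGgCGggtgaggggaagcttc
Fgf10: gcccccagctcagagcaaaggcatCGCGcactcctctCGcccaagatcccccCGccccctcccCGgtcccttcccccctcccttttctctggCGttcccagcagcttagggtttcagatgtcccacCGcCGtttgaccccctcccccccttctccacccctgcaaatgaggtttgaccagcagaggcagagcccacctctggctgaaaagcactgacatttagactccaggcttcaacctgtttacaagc
Spry2: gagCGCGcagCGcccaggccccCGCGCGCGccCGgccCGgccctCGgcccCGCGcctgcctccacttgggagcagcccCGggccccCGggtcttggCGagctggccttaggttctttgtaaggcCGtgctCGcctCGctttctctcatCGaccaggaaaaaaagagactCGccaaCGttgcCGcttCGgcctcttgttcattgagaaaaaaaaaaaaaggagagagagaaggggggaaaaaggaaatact
The windows held 21 CpG (Fgf4), 24 CpG (Fgf5), 8 CpG (Fgf10) and 23 CpG (Spry2), against a median of 6 over 32841 windows of that length. Of all windows, 85.2% had no more CpG than that of Fgf4, 89.3% no more than that of Fgf5, 59.7% no more than that of Fgf10 and 88% no more than that of Spry2. The letters CCAAT, on either strand, were present before Fgf4, and 33.9% of all windows hold them. The octamer ATGCAAAT, searched on both strands, was in none of the 4 windows and in 1.6% of all. The table matched 26 of the 35 members and had no window for Fgf15. In the same annotation the windows of Fgf3 and Fgf4 lie close together on chromosome 7, and the values below differ between these genes.

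Several arrays stood apart within their group. Xist RNA read 10.84 and 10.19 in kidney tumors 2 and 3 and 10.45 and 11.35 in liver tumors 2 and 3, against at most 6.31 in the other tumor arrays and the normal tissues. Adipocyte markers (5 genes, mean log2 level) were at 9.85 in normal kidney 2, 10.06 in normal liver 1 and 9.63 in secondary tumor 1, and at 6.28 to 7.00 in the other arrays. Kidney tubule markers (6 genes) were at 9.22 and 8.17 in normal liver 1 and 2 and at 7.16 in normal liver 3. Tubule markers averaged 12.64 to 12.82 in normal kidney and 10.76 to 11.88 in kidney tumors, and hepatocyte markers 13.60 to 13.65 in normal liver and 12.92 to 13.39 in liver tumors, so both primary tumors kept RNA of their organ. In the secondary tumors tubule markers were at 6.84 to 6.96, near the 6.92 of ES cells. In such mixed tissue, fewer cells of a type and less RNA per cell cannot be told apart.

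In kidney tumors, the ligands Fgf5, Fgf10 and Fgf15 and nearly the whole feedback set were higher than in normal kidney, while Fgf1 and Fgfr4 were lower. Of the 35 members, 18 were called higher, 5 lower and 12 neither. Over all genes tested the share called was 49.8%, 21.7% higher and 28.1% lower. The median log2 change was 0.48 over the members and -0.11 over all genes. By role, 9 of 22 Fgf genes rose and 3 fell, 2 of 5 receptors rose and 2 fell, and 7 of 8 feedback genes rose and 0 fell. A gene was called by limma at an adjusted p under 0.05 over all 19938 genes, and errors beside changes are standard errors of that fit.

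**Figure D1:**
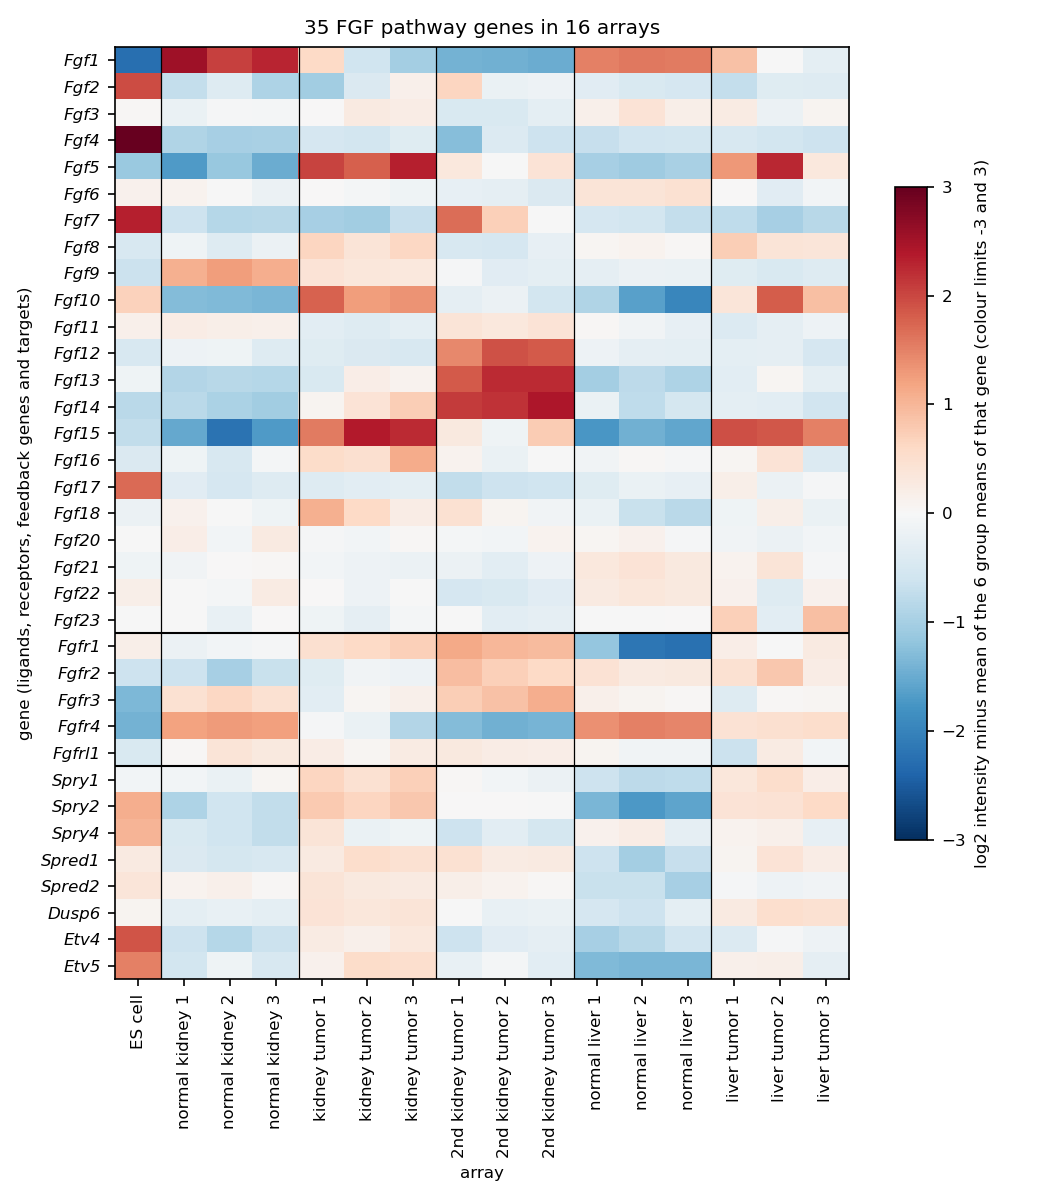
Heat map of the 35 genes (rows, ordered as ligands, receptors, and feedback genes and targets) in the 16 arrays (columns, by group). Colour gives the log2 intensity minus the mean of the 6 group means of that gene, with limits at -3 and 3. Fgf5, Fgf10 and Fgf15 are high in both kinds of primary tumor, Fgf12, Fgf13 and Fgf14 in the secondary tumors, Fgf1 and Fgfr4 in both normal tissues, and Fgf4 in the ES cell array.

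Fgf15 had the largest change of any member in kidney. Its log2 level was 7.22, 6.54 and 7.06 in normal kidney and 10.32, 11.13 and 10.99 in kidney tumors. All tumor arrays lay above all normal arrays. The log2 change was 3.87 ± 0.25, a 14.6-fold rise (limma, adjusted p = 2.12e-07). Fgf5, the epiblast ligand, was at 6.51, 7.07 and 6.72 in normal kidney and at 10.25, 10.00 and 10.54 in the tumors. The groups again did not overlap, and the change was 3.50 ± 0.35 log2 units, 11.3-fold (limma, adjusted p = 4.89e-06).

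Fgf4 behaved differently from these ligands. Its log2 level was 7.39, 7.29 and 7.32 in normal kidney, 7.78, 7.73 and 7.91 in kidney tumors, and 11.64 on the ES cell array. Every tumor array was above every normal array, but all were far below the ES cell value. The call at 0.48 ± 0.16 log2 units (limma, adjusted p = 0.0255) was lost after quantile normalization (0.37, adjusted p = 0.0591) or centring (0.35, adjusted p = 0.0987), without normal kidney 2 or 3, without kidney tumor 3, and without both tumors with Xist signal.

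**Figure D2:**
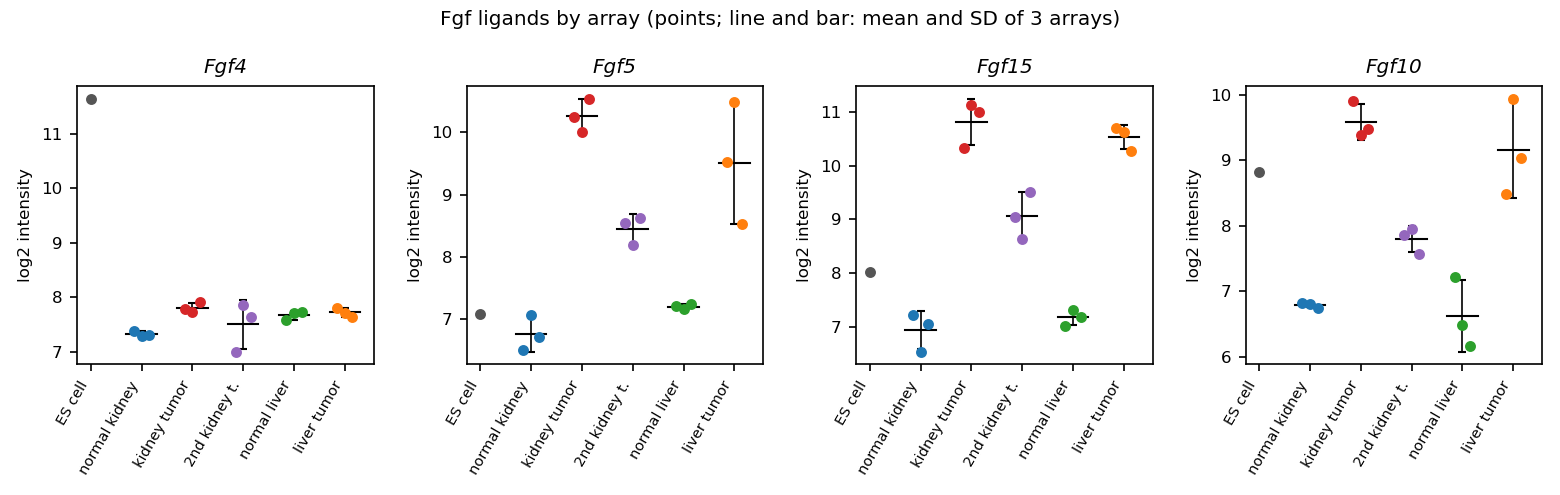
Log2 intensity (vertical axis, own scale in each panel) of Fgf4, Fgf5, Fgf15 and Fgf10 in the 6 groups (horizontal axis). Points are arrays, and the line and bar are the mean and SD of 3 arrays; ES cells have 1 array. Fgf4 is at 11.64 in ES cells and at 7.01 to 7.91 elsewhere. Fgf5, Fgf15 and Fgf10 have their highest group means in the primary tumors, with secondary tumors between normal kidney and kidney tumors. Fgf10 is at 8.82 in ES cells, above the secondary tumors and liver tumor 1.

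Fgf10, a mesenchymal ligand that drives lung and limb outgrowth, read 6.82, 6.80 and 6.75 in normal kidney and 9.90, 9.38 and 9.48 in kidney tumors. The groups did not overlap, and the rise was 2.79 ± 0.32 (limma, adjusted p = 1.32e-05). Fibroblast markers averaged 8.57 to 8.85 in normal kidney and 8.75 to 9.68 in the tumors, with 2 of 6 called higher; the part of such cells in the Fgf10 change was not tested. Without the kidney tumor arrays that had Xist signal, Fgf5, Fgf10 and Fgf15 were all still called higher.

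The other rising ligands were smaller in change. Fgf14, an intracellular member of the family that binds sodium channels, was at 6.18, 6.03 and 5.94 in normal kidney and at 7.06, 7.39 and 7.72 in kidney tumors. It rose by 1.34 ± 0.17 (limma, adjusted p = 3.58e-05). Fgf13, a relative that likewise stays inside the cell, rose by 0.81 ± 0.17, Fgf16 by 0.94 ± 0.20, Fgf8 by 0.78 ± 0.12 and Fgf18 by 0.64 ± 0.21. Fgf8, a ligand of the gastrulating embryo, read 8.17, 7.91 and 8.13 in normal kidney and 8.94, 8.69 and 8.92 in the tumors, without overlap. Fgf13, which lies on chromosome X, was at 6.79, 7.45 and 7.35 in the tumors, lowest in the array without Xist signal. Its call was lost when that array alone stood for the tumors (0.40). Fgf18 lost its call after quantile normalization and without kidney tumor 1 or 2 or normal kidney 2 or 3.

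Fgf1, Fgf9 and Fgf11 fell. Fgf1, a ligand that binds all the kinase receptors, was at 12.16, 11.68 and 11.90 in normal kidney and at 10.22, 9.03 and 8.59 in kidney tumors. No arrays overlapped, and it fell by 2.64 ± 0.35, 6.21-fold (limma, adjusted p = 4.47e-05). Its order among the tumors, highest in tumor 1 and lowest in tumor 3, was that of the tubule marker mean, 11.88, 11.37 and 10.76, of which 2 of 6 genes were called lower; the part of tubule content was not tested. Fgf9, which maintains nephron progenitors in the embryonic kidney, went from 8.76, 8.94 and 8.78 to 8.11, 8.03 and 8.01. That fall of 0.78 ± 0.09 (limma, adjusted p = 1.05e-05) exceeded the spread in either group. Fgf11, another intracellular member, fell by 0.51 ± 0.08. The 10 remaining Fgf genes, Fgf2, Fgf3, Fgf6, Fgf7, Fgf12, Fgf17, Fgf20, Fgf21, Fgf22 and Fgf23, were not called, with changes between -0.20 and 0.27.

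The receptors moved in both directions in kidney tumors. Fgfr4 was at 10.01, 10.07 and 10.03 in normal kidney and at 8.77, 8.59 and 7.91 in the tumors. It fell by 1.61 ± 0.16, 3.05-fold, with no overlap (limma, adjusted p = 4.79e-06). Its order among the tumors was again that of the tubule marker mean, and the part of tubule content was not tested. Fgfr3 fell by 0.55 ± 0.14, from 9.49, 9.66 and 9.49 to 8.72, 9.10 and 9.18. Fgfr1, the main receptor of mesenchyme and of ES cells, was at 10.20, 10.29 and 10.34 in normal kidney and 10.85, 10.97 and 11.09 in the tumors, a rise of 0.70 ± 0.22 (limma, adjusted p = 0.0173). Its call was lost without kidney tumor 3 or normal kidney 1, and without the 2 arrays with Xist signal (0.58). Fgfr2 rose by 0.55 ± 0.15, a call also lost without those arrays (0.39). Fgfrl1, a receptor without a kinase domain, was at -0.06 ± 0.17 and was not called.

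Feedback genes rose almost as a block. Spry2, a Sprouty inhibitor of Ras signalling, was at 7.95, 8.28 and 8.13 in normal kidney and at 9.67, 9.52 and 9.69 in kidney tumors. The gap between the groups was larger than the range within either, and the rise was 1.51 ± 0.10, 2.85-fold (limma, adjusted p = 3.23e-07). Etv4 rose by 0.94 ± 0.13, Spred1 by 0.89 ± 0.12, Etv5 by 0.78 ± 0.15, Spry1 by 0.68 ± 0.11, Dusp6 by 0.66 ± 0.09 and Spry4 by 0.62 ± 0.17. Dusp6, the ERK phosphatase, read 10.33, 10.42 and 10.35 in normal kidney and 11.05, 10.98 and 11.03 in the tumors, so that a difference of 1.57-fold stood clear of both groups' spread. Spred2 was at 0.21 ± 0.09 (limma, adjusted p = 0.0724) by its brighter probe set, and its other probe set gave 0.40. Etv5 lost its call without the arrays that had Xist signal (0.51, adjusted p = 0.0756).

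**Figure D3:**
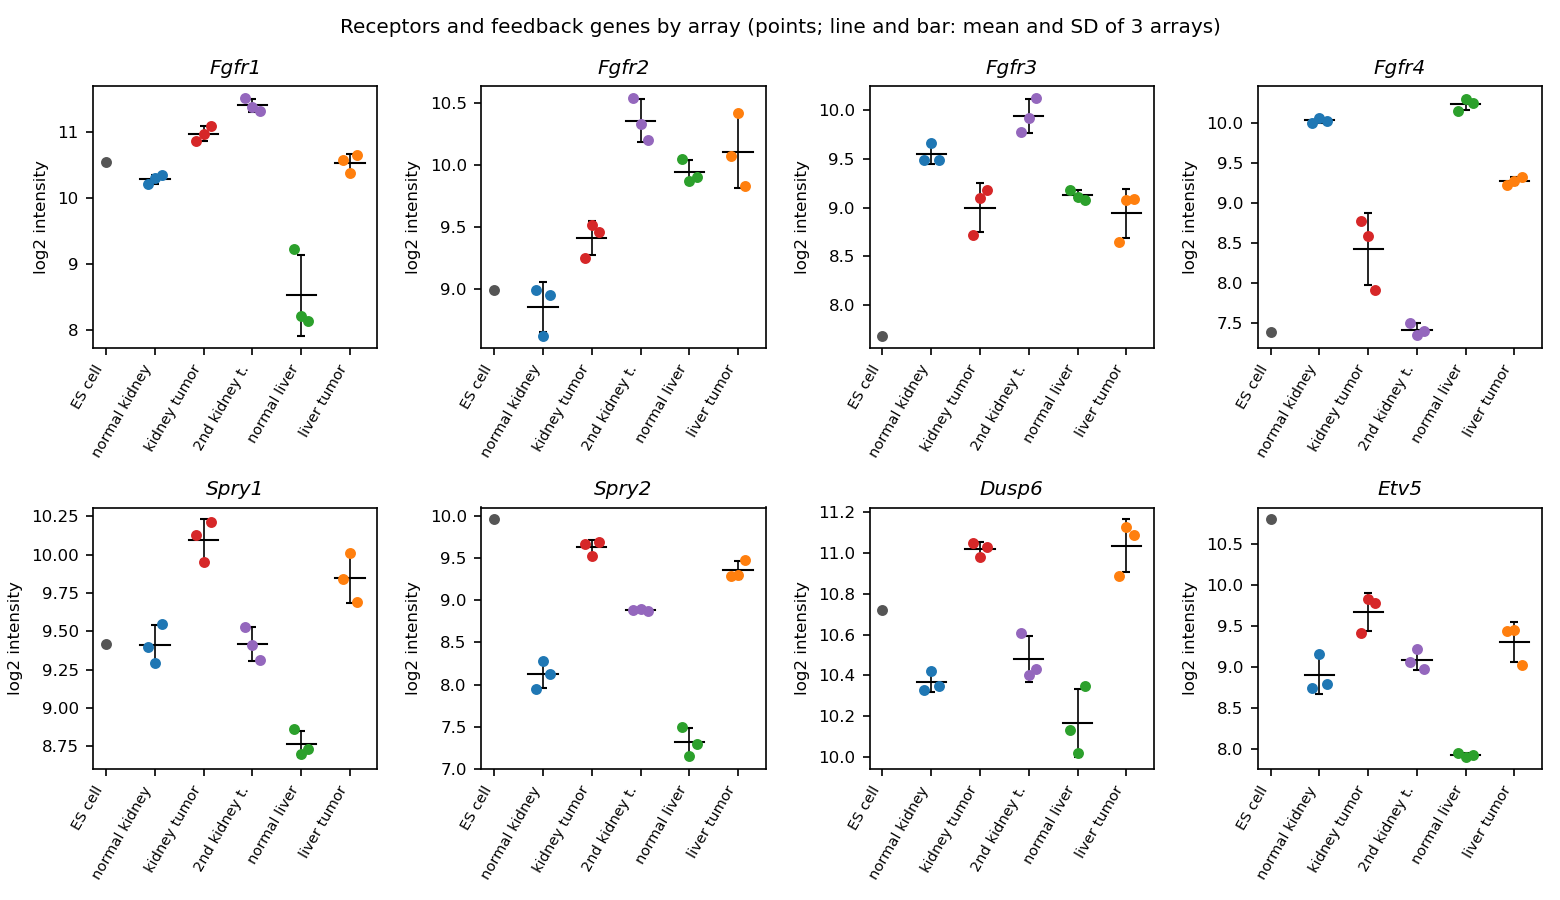
Log2 intensity (vertical axis, own scale in each panel) of Fgfr1, Fgfr2, Fgfr3, Fgfr4, Spry1, Spry2, Dusp6 and Etv5 in the 6 groups. Points are arrays, and the line and bar are the mean and SD of 3 arrays, with 1 array of ES cells. Fgfr4 falls from 10.03 (mean of normal kidney) to 8.43 in kidney tumors and 7.41 in secondary tumors, whereas Spry2 goes from 8.12 to 9.63 and then 8.89.

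Scaling changed the balance of calls over all genes in this comparison. Of the genes called, 43.6% were higher as deposited and 30.8% after centring each array on its median, which moved the median change from -0.11 to -0.24. Among the members, 17 were then called higher and 8 lower. Macrophage and leukocyte markers (4 of 5), neural markers (5 of 6) and ES cell markers (4 of 6) were also higher in kidney tumors, against 21.7% of all genes. The remaining macrophage marker, Csf1r, was lower, with means of 10.03 in normal kidney and 9.31 in kidney tumors. The part of such cells in the members' changes was not tested. Without the tumor arrays with Xist signal, 13 members were higher and 5 lower.

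In liver tumors Fgf5, Fgf10, Fgf15, Fgfr1 and most feedback genes were higher than in normal liver, and Fgf1 and Fgfr4 were lower. Of the 35 members, 14 were higher than in normal liver, 4 lower and 17 neither, against 52.3% of all genes called, 21.5% higher and 30.7% lower. The median change was 0.10 over the members and -0.13 over all genes. Here 6 of 22 Fgf genes rose and 3 fell, 1 of 5 receptors rose and 1 fell, and 7 of 8 feedback genes rose. After centring, the members called were 12 higher and 11 lower, the median of all genes moved to -0.33, and the share of calls that were higher went from 41.2% to 23.2%.

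Fgf15 was at 7.02, 7.32 and 7.19 in normal liver and at 10.70, 10.62 and 10.27 in liver tumors, a rise of 3.35 ± 0.25 (limma, adjusted p = 7.97e-07). Fgf10 was at 7.22, 6.49 and 6.16 in normal liver and at 8.49, 9.94 and 9.04 in the tumors, a rise of 2.54 ± 0.32 (limma, adjusted p = 4.04e-05). Neither gene had overlapping arrays. Fgf5 was at 7.21, 7.16 and 7.24 in normal liver and at 9.52, 10.48 and 8.53 in the tumors, so it was high in all tumors but unevenly so. Its rise was 2.31 ± 0.35 (limma, adjusted p = 0.00018). Fgf4, in contrast, was at 7.58, 7.71 and 7.73 in normal liver and 7.81, 7.72 and 7.65 in the tumors. These arrays overlapped, and its change of 0.06 ± 0.16 (95% interval -0.29 to 0.41) was not called.

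Smaller calls among the liver ligands were Fgf13 (0.73 ± 0.17), Fgf8 (0.43 ± 0.12) and Fgf17 (0.26 ± 0.09), which rose, and Fgf1, Fgf6 and Fgf22, which fell. Fgf1 was at 11.14, 11.21 and 11.18 in normal liver and at 10.50, 9.61 and 9.33 in liver tumors. It fell by 1.36 ± 0.35 (limma, adjusted p = 0.00651), and without the liver tumors with Xist signal the change was -0.67 and not called (adjusted p = 0.289). Without normal liver 1 and 2 it was -1.36 and not called (adjusted p = 0.0803). Fgf6, a muscle ligand, fell by 0.54 ± 0.10 and Fgf22 by 0.33 ± 0.13, the former among the dimmest genes. The calls of Fgf8, Fgf17 and Fgf22 were each lost under several other settings, and that of Fgf13 without the liver tumors with Xist signal (0.60, adjusted p = 0.0744).

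Fgfr1 was the receptor that changed most in liver. It read 9.22, 8.20 and 8.13 in normal liver and 10.57, 10.37 and 10.64 in liver tumors. The rise was 2.01 ± 0.22, 4.03-fold (limma, adjusted p = 1.22e-05), and the highest normal array, normal liver 1, was the one with adipocyte signal and the most tubule signal. Fgfr4 fell by 0.97 ± 0.16, from 10.16, 10.31 and 10.26 to 9.23, 9.28 and 9.33. Hepatocyte markers fell in 3 of 6 cases in the same comparison, and their part in the Fgfr4 change was not tested. Among feedback genes Spry2 rose by 2.04 ± 0.10, from 7.50, 7.15 and 7.29 to 9.29, 9.30 and 9.48 (limma, adjusted p = 3.84e-08). Etv5 rose by 1.38 ± 0.15, Spry1 by 1.08 ± 0.11, Spred1 by 1.02 ± 0.12, Dusp6 by 0.87 ± 0.09, Spred2 by 0.68 ± 0.09 and Etv4 by 0.61 ± 0.13, the last not called without the liver tumors with Xist signal (0.39, adjusted p = 0.124) or without normal liver 1 and 2 (0.39, adjusted p = 0.119). Spry4 was at -0.01 ± 0.17 and was not called.

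**Figure D4:**
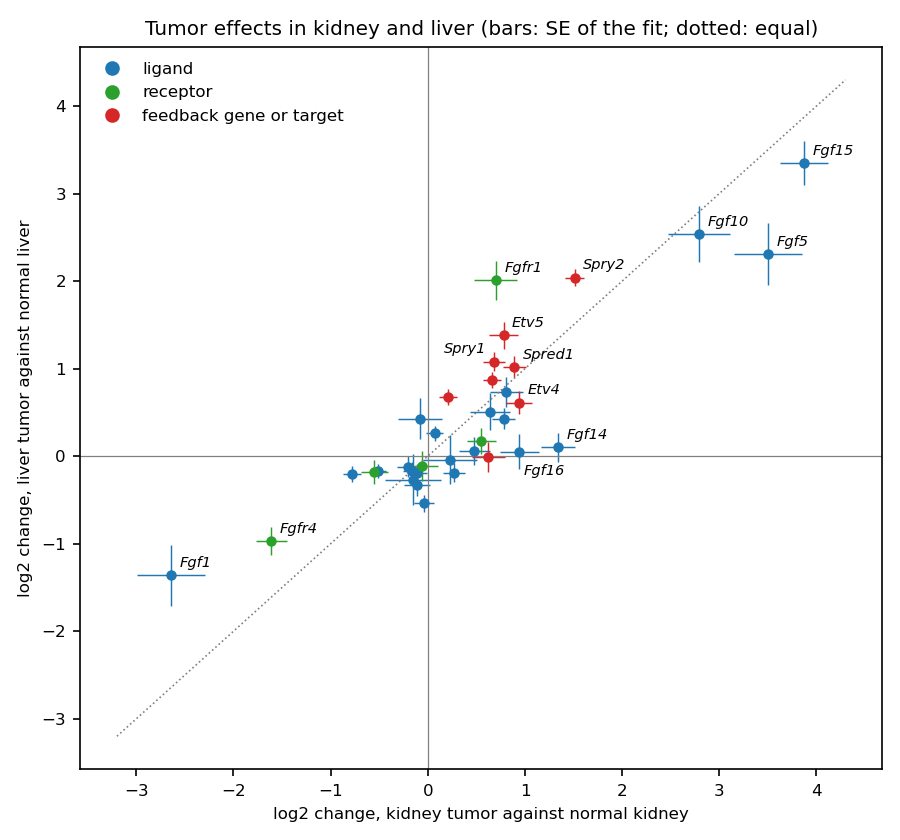
Log2 change of the 35 genes in kidney tumors against normal kidney (horizontal axis) and in liver tumors against normal liver (vertical axis). Points are genes coloured by role, bars are standard errors of the fit, and the dotted line marks equal changes. Fgf5, Fgf10 and Fgf15 are at the upper right, Fgf1 and Fgfr4 at the lower left, and Fgfr1 lies above the line at 0.70 and 2.01.

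Across organs, 12 members were higher in both primary tumors: Fgf5, Fgf8, Fgf10, Fgf13, Fgf15, Fgfr1, Spry1, Spry2, Spred1, Dusp6, Etv4 and Etv5. Of all genes 14.8% were higher in both. Fgf1 and Fgfr4 were lower in both, as were 16.4% of all genes, and 0 members were called in opposite directions, against 1.95% of all genes. Under some alternative, Fgf1, Fgf8, Fgf13 and Etv4 lost their call in liver, and Fgf13, Fgfr1 and Etv5 lost theirs in kidney. The control arrays of the organs are separate. Whether same-numbered kidney and liver tumors came from the same animal is not stated, and the fit treated them as independent. Over the 35 genes the changes correlated at r = 0.878, and over all 19938 genes at r = 0.684; genes are not independent replicates, so these are descriptions.

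The size of the tumor effect differed between organs for 6 of 35 members (17.1%), near the share of all genes. The difference is the kidney change minus the liver change, and 16.8% of all genes were called in it, 7.54% above 0 and 9.26% below. It was above 0 for Fgf14 (1.24 ± 0.25) and Fgf6 (0.50 ± 0.14) and below 0 for Fgfr1 (-1.32 ± 0.31), Fgf9 (-0.58 ± 0.12), Spry2 (-0.54 ± 0.15) and Spred2 (-0.47 ± 0.13). For Fgfr1 the normal tissues already differed, with normal kidney at 10.20 to 10.34 and normal liver at 8.13 to 9.22. None of the 6 calls held in every alternative. Without the kidney tumors with Xist signal, which leaves 1 kidney tumor array, the difference was -1.43 for Fgfr1 (adjusted p = 0.0511), 0.91 for Fgf14 (adjusted p = 0.055) and -0.52 for Fgf9 (adjusted p = 0.074). For Fgf5 the difference was 1.19 ± 0.50, for Fgf15 0.52 ± 0.36 and for Fgf4 0.42 ± 0.23, and none was called. Fgf5 was called without liver tumor 2 (1.67, limma adjusted p = 0.00701) and without the liver tumors with Xist signal (1.18, adjusted p = 0.0224), and Fgf4 with only the compared groups fitted (0.42, adjusted p = 0.0346).

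Kidney and liver tumors were also compared directly. The call was made for 7 members, 4 higher and 3 lower in kidney tumors, against 13% of all genes, 7.06% higher and 5.9% lower. Fgf9 was at 8.11, 8.03 and 8.01 in kidney tumors and 7.32, 7.23 and 7.31 in liver tumors, a difference of 0.76 ± 0.09 (limma, adjusted p = 4.17e-05). It was the call that held in every alternative. Fgf14 (0.80), Fgf16 (0.70) and Spred2 (0.41) were the others higher in kidney tumors, and Fgf17 (-0.33), Fgfr2 (-0.70) and Fgfr4 (-0.85) were lower. Fgf4, Fgf5 and Fgf15 were not called, at 0.08 ± 0.16, 0.75 ± 0.35 and 0.28 ± 0.25. Without liver tumor 2, the array highest in Fgf5 of the liver tumors, Fgf5 was at 1.24 and called higher in kidney tumors (limma, adjusted p = 0.00687).

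Between the normal organs 13 members differed, 8 higher and 5 lower in kidney, against 37.8% of all genes, 21.4% higher and 16.4% lower. Fgfr1 was higher in kidney by 1.76 ± 0.22, Fgf9 by 1.34 ± 0.09, Etv5 by 0.98 ± 0.15, Spred2 by 0.88 ± 0.09, Spry2 by 0.81 ± 0.10 and Spry1 by 0.65 ± 0.11. Fgfr2 was at -1.09 ± 0.15, lower in kidney, with 8.99, 8.62 and 8.95 in kidney and 10.05, 9.87 and 9.90 in liver. Without normal liver 1 and 2, which had tubule signal, 1 normal liver array is left, so a change in calls cannot be tied to that signal.

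The secondary kidney tumors had another makeup of FGF genes. Against normal kidney, 13 members were higher, 7 lower and 15 neither, with 68.6% of all genes called, 29.9% higher and 38.7% lower; the median change was 0.18 over the members and -0.12 over all genes. Of the 8 feedback genes, 2 were called higher (Spred1 and Spry2) and 6 were not called, among them Etv4 at 0.29 (95% interval 0.00 to 0.58) and Etv5 at 0.18 (95% interval -0.14 to 0.50). Directly against primary kidney tumors, 7 members were higher, 17 lower and 11 neither, where 36% of all genes were called, 18.5% higher and 17.4% lower, and the median change was -0.31 over the members and -0.07 over all genes. Centring moved the share of higher calls among all genes from 43.6% to 29.8% against normal kidney, with 11 members higher and 10 lower, and from 51.5% to 38.9% against primary tumors, with 7 and 20.

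Secondary tumors had less Fgf5 and Fgf15 RNA than primary ones, but more than normal kidney. Fgf5 read 8.54, 8.20 and 8.63 in the secondary tumors, below all primary tumors and above all normal kidneys. It fell by 1.81 ± 0.35 against primary tumors (limma, adjusted p = 0.00139) and was 1.69 ± 0.35 above normal kidney (limma, adjusted p = 0.000979). Fgf15 read 9.05, 8.63 and 9.51, fell by 1.75 ± 0.25 log2 units against primary tumors and was 2.12 ± 0.25 above normal kidney. Fgf10 read 7.86, 7.95 and 7.57, again between the other groups with no overlap. It fell by 1.79 ± 0.32 against primary tumors (limma, adjusted p = 0.000704). Fgf4 was spread over 7.01, 7.87 and 7.65 and was called in neither comparison, at 0.18 ± 0.16 against normal kidney and -0.30 ± 0.16 against primary tumors. Without secondary tumor 1, the lowest array, it was 0.43 above normal kidney and called (limma, adjusted p = 0.00214). Without secondary tumor 2, the highest array, it was at -0.48 against primary tumors and called lower (limma, adjusted p = 0.0295).

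The intracellular members Fgf12, Fgf13 and Fgf14 took the opposite course. Fgf12 was at 8.24, 8.69 and 8.63 in the secondary tumors, while primary tumors lay at 6.43, 6.36 and 6.31 and normal kidney at 6.63, 6.67 and 6.41. Its rise over primary tumors was 2.15 ± 0.12, 4.44-fold (limma, adjusted p = 1.94e-08). Fgf13 was at 9.09, 9.48 and 9.47, with a rise of 2.15 ± 0.17 over primary tumors and 2.96 ± 0.17 over normal kidney. Fgf14 was at 9.08, 9.15 and 9.42, with a rise of 1.83 ± 0.17 over primary tumors and 3.17 ± 0.17 over normal kidney. All secondary arrays of these genes were above all other arrays of the series. These proteins, with Fgf11 (higher by 0.71 ± 0.08), are known from neurons and muscle, where they bind sodium channels.

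Neural markers moved with them: their 6-gene mean was 9.58 to 10.06 in secondary tumors, 7.50 to 8.32 in primary tumors and 6.67 to 6.73 in normal kidney, and 4 of 6 were higher in secondary than in primary tumors. Gfap was at 10.85 to 11.35 and Dcx at 11.10 to 11.50 in the secondary tumors. Their part in the rise of Fgf12, Fgf13 and Fgf14 was not tested. Keratinocyte markers (4 of 4) and fibroblast markers (6 of 6) were also higher, with fibroblast means of 11.20 to 11.58 against 8.75 to 9.68 in primary tumors.

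Fgf7, a fibroblast ligand that acts on epithelia through Fgfr2, was uneven. It read 8.45, 7.49 and 6.76 in secondary tumors and 5.72 to 6.07 in primary tumors. The rise was 1.71 ± 0.29 (limma, adjusted p = 0.000543), with all secondary arrays above all primary ones. Secondary tumor 1, the highest, was the array with adipocyte signal. Fgf2 was at 8.23, 7.38 and 7.43 and was called against normal kidney (0.78 ± 0.28, limma, adjusted p = 0.0251), a call lost after quantile normalization (0.65) or centring (0.55), without secondary tumor 1 (0.50), and without normal kidney 1 or 3.

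Further ligands were lower in the secondary tumors. Fgf1 was at 8.20, 8.17 and 8.12 and fell by 3.75 ± 0.35 log2 units against normal kidney. Against primary tumors it fell by 1.11 ± 0.35. The latter call was lost without any one of the secondary tumors, without kidney tumor 1 (-0.64, adjusted p = 0.088) and with only the compared groups fitted. Fgf9 went from means of 8.83 in normal kidney to 8.05 in primary and 7.46 in secondary tumors. Fgf8 was back at 7.82, 7.79 and 8.06 and fell by 0.96 ± 0.12 against primary tumors. Against primary tumors Fgf16 fell by 0.74, Fgf3 fell by 0.57, Fgf22 fell by 0.38 and Fgf17 fell by 0.31 log2 units. All but Fgf22 were among the dimmest genes, and their calls were each lost under some alternative.

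**Figure D5:**
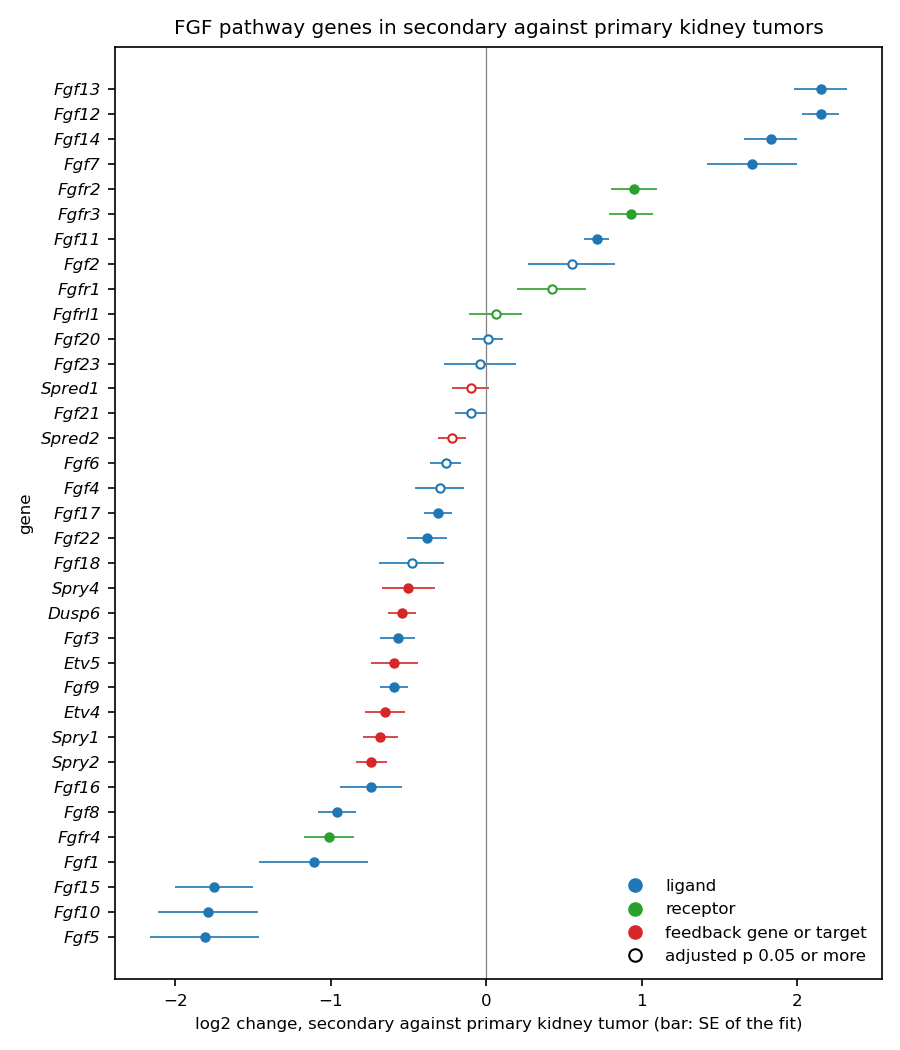
Log2 change of each of the 35 genes in secondary against primary kidney tumors (horizontal axis), ordered by size. Points are the fitted changes, bars their standard errors, colour gives the role, and open points have an adjusted p of 0.05 or more. Fgf12 and Fgf13 (2.15), Fgf14 (1.83) and Fgf7 (1.71) are at the top, and Fgf5 (-1.81), Fgf10 (-1.79) and Fgf15 (-1.75) at the bottom.

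Among receptors of the secondary tumors, Fgfr4 was lower and Fgfr2 and Fgfr3 higher than in primary tumors. Fgfr4 was at 7.50, 7.35 and 7.39, near the 7.38 of ES cells. It fell by 2.62 ± 0.16 against normal kidney (limma, adjusted p = 2.4e-08) and by 1.01 ± 0.16 against primary tumors. Fgfr2 was at 10.54, 10.33 and 10.20, a rise of 0.95 ± 0.15 over primary tumors and 1.51 ± 0.15 over normal kidney. Fgfr3 was at 9.77, 9.91 and 10.12, a rise of 0.93 ± 0.14 over primary tumors (limma, adjusted p = 0.000201). No array of either gene overlapped between primary and secondary tumors. Fgfr1, at 11.51, 11.37 and 11.31, was above normal kidney by 1.12 ± 0.22, and its change of 0.42 ± 0.22 against primary tumors was not called.

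Of the 8 feedback genes, 6 were lower in secondary than in primary tumors and 0 higher. Spry2 was at 8.89, 8.90 and 8.87. It fell by 0.74 ± 0.10 against primary tumors and was 0.77 ± 0.10 above normal kidney. Spry1 was at 9.53, 9.41 and 9.31 and fell by 0.68 ± 0.11, Etv4 by 0.65 ± 0.13, Etv5 by 0.59 ± 0.15, Dusp6 by 0.54 ± 0.09 and Spry4 by 0.50 ± 0.17. Against normal kidney Spry1 was at 0.00 ± 0.11, with a 95% interval of -0.23 to 0.23, and Dusp6 at 0.11 ± 0.09, and neither was called. Spred1 stayed above normal kidney by 0.79 ± 0.12. Spry4 lost its call against primary tumors without kidney tumor 1, without secondary tumor 1 or 3, and with only the compared groups fitted, and Etv5 without the tumors with Xist signal.

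The comparisons of kidney tumors with normal kidney and of secondary with primary tumors use the same kidney tumor arrays, which enter with opposite signs. A member high on those arrays by error would be pushed up in the former and down in the latter, so no count of members with opposite calls is given. Fgf20, Fgf23 and Fgfrl1 were called in none of the 7 comparisons.

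On the ES cell array, which has no replicate, Fgf4 (11.64), Fgf17 (9.05), Fgf7 (9.10), Fgf2 (9.54), Spry2 (9.96), Spry4 (10.16), Etv4 (9.83) and Etv5 (10.80) were above every other array. Fgf5 was at 7.09 and Fgf15 at 8.02, below every primary tumor. Fgf10 was at 8.82. Fibroblast markers averaged 9.55 there, against 8.57 to 8.85 in normal kidney. Col1a1 was at 10.55, while Dcn, at 10.45, was lower than on any other array. The part of fibroblasts in the levels of Fgf7, Fgf2 and Fgf10 was not tested. The ES cell marker mean was 11.96, with Zfp42 at 8.60.

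The genes most like each stage marker were found by Pearson correlation of log2 levels over 16 arrays, without predicted gene models and members. For Fgf4 they were Rbm44 (r = 0.986), Epp13 (0.979), Grem1 (0.978), Meioc (0.975) and Gpa33 (0.973), and without the ES cell array these values were 0.736, 0.588, 0.635, 0.418 and 0.4. For Fgf5 they were Cer1 (0.986), Shisa2 (0.972), Mixl1 (0.947), Dkk1 (0.946) and Irs4 (0.945), and over 15 arrays without ES cells they lay between 0.944 and 0.986. For Fgf15 they were Prtg (0.983), Fndc3c1 (0.97), Lin28b (0.959), Dkk1 (0.956) and Cer1 (0.956), and without ES cells 0.957 to 0.992. The arrays share groups, so these are descriptions of the pattern over groups. The likeness of Fgf4 rested on the ES cell array to a large degree, and that of Fgf5 and Fgf15 did not.

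Genes that mark the formative and primed epiblast were also measured. In kidney tumors 6 of 6 were higher (median 2.74), in liver tumors 4 of 6 and in secondary tumors 5 of 6, each against normal tissue. Of all genes, 21.7%, 21.5% and 29.9% were higher in these comparisons. Against primary tumors 5 of 6 were lower in the secondary ones, as were 17.4% of all genes. Otx2, a homeobox factor of the epiblast, was at 6.21, 5.96 and 6.25 in normal kidney, 11.07, 10.96 and 11.43 in kidney tumors and 10.39, 10.18 and 10.44 in secondary tumors. The single ES cell array was also high in Otx2 (10.10), Dnmt3b (10.50) and Zic2 (10.23), against kidney tumor means of 11.15, 10.76 and 10.80. Lef1, Pou3f1 and Sox3 were there at 8.58, 8.39 and 8.74, against 8.79, 8.42 and 9.11. Of 8 naive stage genes, 2 rose (Nanog 2.40, Tbx3 0.82) and 2 fell (Esrrb -1.49, Tfcp2l1 -1.09) in kidney tumors, and in liver tumors 1 rose and 2 fell. Both that fell in kidney are expressed in normal kidney: Tfcp2l1 went from 11.74, 11.70 and 11.41 to 11.35, 10.47 and 9.78, and Esrrb from 8.69, 8.58 and 8.58 to 7.70, 6.95 and 6.74. They had the order of the tubule marker mean among the tumors, and the part of tubule content was not tested. Zfp42, a marker of naive cells, was at 5.83 to 6.08 in kidney tumors and 5.91 to 6.15 in normal kidney.

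Beyond the 8 members, 12 other feedback genes and early targets of the pathway were measured. In kidney tumors 9 rose and 1 fell, in liver tumors 7 rose and 0 fell, and in secondary tumors 7 rose and 2 fell against normal kidney. Of all genes, 21.7%, 21.5% and 29.9% rose and 28.1%, 30.7% and 38.7% fell in these comparisons. Il17rd, a membrane inhibitor of FGF signalling also called Sef, was at 8.27, 8.47 and 8.46 in normal kidney and at 10.35, 10.38 and 10.52 in the tumors. It rose by 2.02 ± 0.13 in kidney (limma, adjusted p = 1.69e-07) and by 2.97 ± 0.13 in liver, and fell by 0.92 ± 0.13 from primary to secondary tumors. Myc, which the reprogramming transgenes may also supply to the array, rose by 2.07 in kidney and 1.89 in liver. Etv1, a relative of Etv4, fell by 0.99 in kidney tumors and rose by 1.41 in liver tumors.

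Genes for heparan sulfate, on which FGFs dock, were called in both directions: 7 of 15 rose and 5 fell in kidney tumors, 9 and 4 in secondary tumors against normal kidney, and 6 and 5 in liver tumors. Of all genes, 21.7% rose and 28.1% fell in kidney tumors, 29.9% and 38.7% in secondary tumors, and 21.5% and 30.7% in liver tumors. The extracellular sulfatases Sulf1 and Sulf2, which trim heparan sulfate, rose by 3.30 ± 0.24 and 1.84 ± 0.15 in kidney tumors, and the glypican Gpc3, a fetal cell-surface proteoglycan, by 2.85 ± 0.32. In secondary tumors Sulf1 was at 12.13, 12.06 and 12.05 against 7.36, 7.58 and 7.23 in normal kidney. Among 7 measured co-receptors and ligand binders, 1 rose and 2 fell in kidney tumors. Kl, the co-receptor of the hormone Fgf23, went from 12.45, 12.49 and 12.52 in normal kidney to 10.18, 10.65 and 9.32 in kidney tumors and 6.28, 6.37 and 6.43 in secondary tumors, along with the tubule markers. Flrt3, a membrane protein that binds FGF receptors, rose by 1.61 ± 0.27 in kidney and 2.13 ± 0.27 in liver tumors. Of 13 measured adaptors and kinases, 5 rose and 4 fell in kidney tumors, and 6 rose and 3 fell in liver tumors, with Nras at 1.29 and 1.11.

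Most genes of the Fgf15 axis fell in liver tumors, and most also fell in both kinds of kidney tumor. In the normal liver, Fgf15 from the gut acts on Fgfr4 with its co-receptor Klb and represses Cyp7a1, the rate-limiting enzyme of bile acid synthesis. Of 7 genes on that axis, Fgfr4 among them, 6 fell in liver tumors and 0 rose, against 30.7% of all genes lower. Against normal kidney, 5 fell and 0 rose in kidney tumors, and 5 fell and 0 rose in secondary tumors. Of all genes, 28.1% and 38.7% were lower in those comparisons. Cyp7a1 was at 10.22, 9.94 and 11.31 in normal liver and at 10.41, 8.41 and 6.36 in liver tumors, so the groups overlapped in spite of a call at -2.10 ± 0.70 (limma, adjusted p = 0.0244). Cyp8b1, a later enzyme of that route, fell by 2.64 ± 0.21, Nr0b2 by 2.54 ± 0.24, Nr1h4 by 1.18 ± 0.38 and Klb by 1.10 ± 0.35. Hepatocyte markers fell too in 3 of 6 cases, and the part of hepatocyte content was not tested. Of 4 markers of ileal enterocytes, the cells that make Fgf15 in adults, 0 were called higher in any tumor against its normal tissue. Fabp6 was at 5.33 to 5.95 and Alpi at 6.03 to 6.69 on all arrays. Slc10a2, which kidney and liver also express, was at 9.61, 9.89 and 9.10 in normal liver and lower than that on all liver tumor arrays. Vil1 was at 7.35, 7.10 and 6.97 in normal liver and at 7.16, 9.42 and 7.70 in liver tumors. The part of such cells in the Fgf15 change was not tested.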

How the data were processed

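Expression was read on 1-colour Affymetrix arrays. What the authors deposited is an intensity on a linear scale for each probe set. How they corrected background and normalized is not stated in any source at hand. Intensities ran from 20.7 to 20262 with array medians of 191 to 226, and without a detection p a transcript near the low end cannot be told from background. Precision is set by the small number of arrays. No label ties replicates to separate animals, so p-values reflect the spread among these samples, part of which may be technical.

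The log2 of each deposited value was taken without further scaling. Of 28856 probe sets, the 21789 with 1 gene symbol in the 2016 platform annotation were used (1621 had several, 5446 none). Where a gene had several probe sets (999 genes), that of highest mean stood for it. A linear model in limma 3.58.1 (R 4.3.3) had a term for each of the 6 groups, shared 1 spread per gene over 16 arrays (10 residual degrees of freedom), and was tested 2-sided in 7 contrasts with Benjamini-Hochberg adjustment over 19938 genes. The fit was also run on simulated data with independent noise and few changed genes. Many more genes were called here, so that run does not vouch for these calls. Members, pathway lists, markers and alternatives were chosen with earlier results of these data known.

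Genes were named by this rule: Fgf4, Fgf5 and Fgf15 throughout, the called members of largest change in each role (at most 8), up to 3 genes of each pathway list, and 5 most correlated genes per stage marker. Some others are named to account for all members or to show a marker. Alternatives covered normalization, dim genes, probe sets, moderation, the groups fitted, a replicate block, and left-out arrays. Sorted early cells and DNA methylation were not analysed here.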

Additional observations from a re-analysis of the deposited data

Results flagged for a closer look

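The tumor effect differed between kidney and liver, by a test of the difference itself, in 6 of 35 members (17.1%). That share was near the 16.8% of all genes called, and none of the 6 calls held in every alternative. As kidney change minus liver change in log2 units (limma), these were Fgf14 at 1.24 (adjusted p = 0.00435), Fgf6 at 0.50 (adjusted p = 0.0318), Fgf9 at -0.58 (adjusted p = 0.00608), Fgfr1 at -1.32 (adjusted p = 0.0108), Spry2 at -0.54 (adjusted p = 0.0249) and Spred2 at -0.47 (adjusted p = 0.0243). Fgf14 rose in kidney tumors by 1.34 and was at 0.10 in liver tumors, and Fgfr1 rose by 0.70 and 2.01. Fgf9 fell in kidney by 0.78 and was at -0.20 in liver. Spry2 rose by 1.51 and 2.04. Spred2 was at 0.21 and 0.68 and, by its other probe set, the difference was -0.26. Fgf6 was at -0.04 and -0.54, at low signal.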

How the results depend on the processing

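Member calls that held in every alternative that gave a value numbered 17 of 23 (kidney tumor against normal kidney), 15 of 20 (secondary tumor against normal kidney), 17 of 24 (secondary against primary), 12 of 18 (liver tumor against normal liver), 0 of 6 (difference between organs), 1 of 7 (kidney against liver tumor) and 7 of 13 (normal kidney against normal liver). Over all settings 298 counts stayed within 1.5 times and 38 moved further. The cause was not tested unless the setting itself reduced the genes or samples.

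With arrays centred on their median, members lower were 8 in kidney tumors (5 as deposited), 11 in liver tumors (4) and 2 in the difference between organs (4). With the dimmest genes left out, fewer were tested: 4 lower in secondary tumors against normal kidney, 4 higher against primary tumors, 0 higher in the difference between organs and 2 lower between normal organs. With only the compared groups in the fit, kidney and liver tumors differed in 948 genes (2584), with 1 member higher and 0 lower, and 10 members were lower in normal kidney than in normal liver.

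The settings that leave out the liver tumors with Xist signal or normal liver 1 and 2 were added after the main plan. That of the kidney tumors was in the plan. The arrays to leave out were in each case picked by values in these data. All of these settings leave 1 array in the reduced group, so calls can be lost for want of replicates. Without the kidney tumors with Xist signal, 5715 genes (9922) were called in kidney tumors, 1692 (3350) in the difference between organs with 1 member higher and 0 lower, and 2 members were higher in kidney than in liver tumors. Without the liver tumors with Xist signal, 5862 genes (10419) were called in liver tumors. Without normal liver 1 and 2 these were 6249 with 2 members lower, the difference between organs had 2168 genes with 1 member higher, and 1 member was lower in normal kidney. Without the normal arrays with adipocyte signal, the difference between organs had 1 member higher and 3 members were lower in normal kidney.

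Fgf4 changed sign in values that were not called: -0.05 in secondary tumors against normal kidney after centring, and -0.0011 without secondary tumor 2 (without secondary tumor 1 it was 0.43 and called higher); -0.06 in liver tumors after quantile normalization and -0.14 after centring; and -0.01 in kidney against liver tumors without the liver tumors with Xist signal. Fgf15 in kidney against liver tumors was -0.21 without the kidney tumors with Xist signal. Between normal organs Fgf4 (-0.34) and Fgf5 (-0.44) were called only with the compared groups alone in the fit.

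Leaving out 1 array at a time, the difference between organs had 1 member higher (without normal kidney 2 or 3 or any one normal liver array) to 4 (without kidney tumor 1 or liver tumor 1 or 2), and 2 lower (without kidney tumor 2 or normal kidney 2) to 6 (without kidney tumor 1). Kidney against liver tumors had 3 to 8 members higher, the most without liver tumor 2, and normal kidney against normal liver 3 to 5 lower, the fewest without normal kidney 1 or 3 or normal liver 2. With the replicate block, members higher and lower were 19 and 5 in kidney tumors, 14 and 7 in secondary tumors against normal kidney, 7 and 18 against primary tumors, and 15 and 4 in liver tumors. Deviations of same-numbered arrays correlated at -0.278 to 0.272 over all the pairs of groups checked. Between kidney and liver tumors the values were 0.272, 0.253 and 0.00381 for numbers 1, 2 and 3. Xist signal was also on numbers 2 and 3 in both organs. No label says that same-numbered tumors share an animal, and this was not tested. The main fit did not pair arrays by number. Low signal limits Fgf3, Fgf6, Fgf20 and Fgf21.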
